A study of Mus musculus with 2 samples.

Results

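The bone morphogenetic protein (BMP) genes described here are the ligands *Bmp2*, *Bmp4* and *Bmp6*, the antagonist *Nog*, the receptors *Bmpr1a*, *Bmpr2* and *Acvr1*, and the target genes *Id1*, *Id2* and *Id3*. These 10 genes were found by symbol among the 32285 genes counted in each library, and all 10 had at least 1 UMI (a tagged and counted RNA molecule) in both libraries. They were followed in cells sorted for tdTomato from Clec3b.creERT2; Ai14.R26.tdTomato mice, in which tamoxifen, given 2 weeks before surgery, switched on the red reporter permanently in cells that used *Clec3b* and in their descendants. The mice were 6 weeks old at surgery, in which the right femur was cut and pinned. The intact library (treatment None) came from intact femoral diaphyses with their muscle and the callus library (treatment Fracture) from fracture calluses, both collected 3 weeks later from 3 littermates whose tissue was pooled. With 1 library per condition there was no test between conditions, all mice carried the reporter and received tamoxifen, and every interval below is at 95% and covers counting error only.

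BMP ligands are secreted dimers that bind pairs of type I and type II receptor kinases, which phosphorylate Smad1, Smad5 and Smad9. These Smads enter the nucleus with Smad4 and switch on targets, among which the *Id* genes respond fast and directly. BMPs were named for inducing bone at ectopic sites, *Bmp2* in the limb is needed to start fracture repair, and activating *Acvr1* mutations cause heterotopic ossification.

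The intact library held 1872 barcodes with 12112002 UMIs and the callus library 3987 barcodes with 36714322 UMIs. Of these, 1207 and 3295 cells passed a filter of 500 genes or more and no more than 10% of UMIs from mitochondrial genes, with medians of 4939 and 6843 UMIs, and 1 barcode occurred in both libraries. Cell types were gated in single cells from lists of marker genes, and a type's name stands for cells like that type by those markers. Fibroblasts numbered 287 and 211, and were split into *Pi16*-type (101 and 46 cells), *Ptx3* *Has1* inflammatory (44 and 27), *Col15a1*-type (62 and 28) and *Thbs4* tendon-like cells (7 and 33), with 73 and 77 cells unassigned. Marrow stromal cells (41, called BMSCs) and osteoblasts (38) were gated in the callus, against 0 and 1 in the intact library. *Clec3b* was detected in 97.9% of intact and 96.2% of callus fibroblasts, but in 0.532% and 0.517% of blood cells and in no endothelial cell. It was also in only 7.32% of callus BMSCs and 2.63% of callus osteoblasts, so *Clec3b* RNA cannot show whether a cell used the gene earlier. Blood (752 and 2516 cells) and endothelial cells (29 and 103) are described as cells of the sorted fraction. The study set them aside as sorting artifacts, and transcripts of the reporter itself were not used here. The mice are labelled male, yet *Xist* was found in 89.2% and 93.8% of fibroblasts and 4 Y-linked genes had 1 and 0 UMIs in all, so the labelled sex went against the RNA of both libraries.

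**Figure D1:**
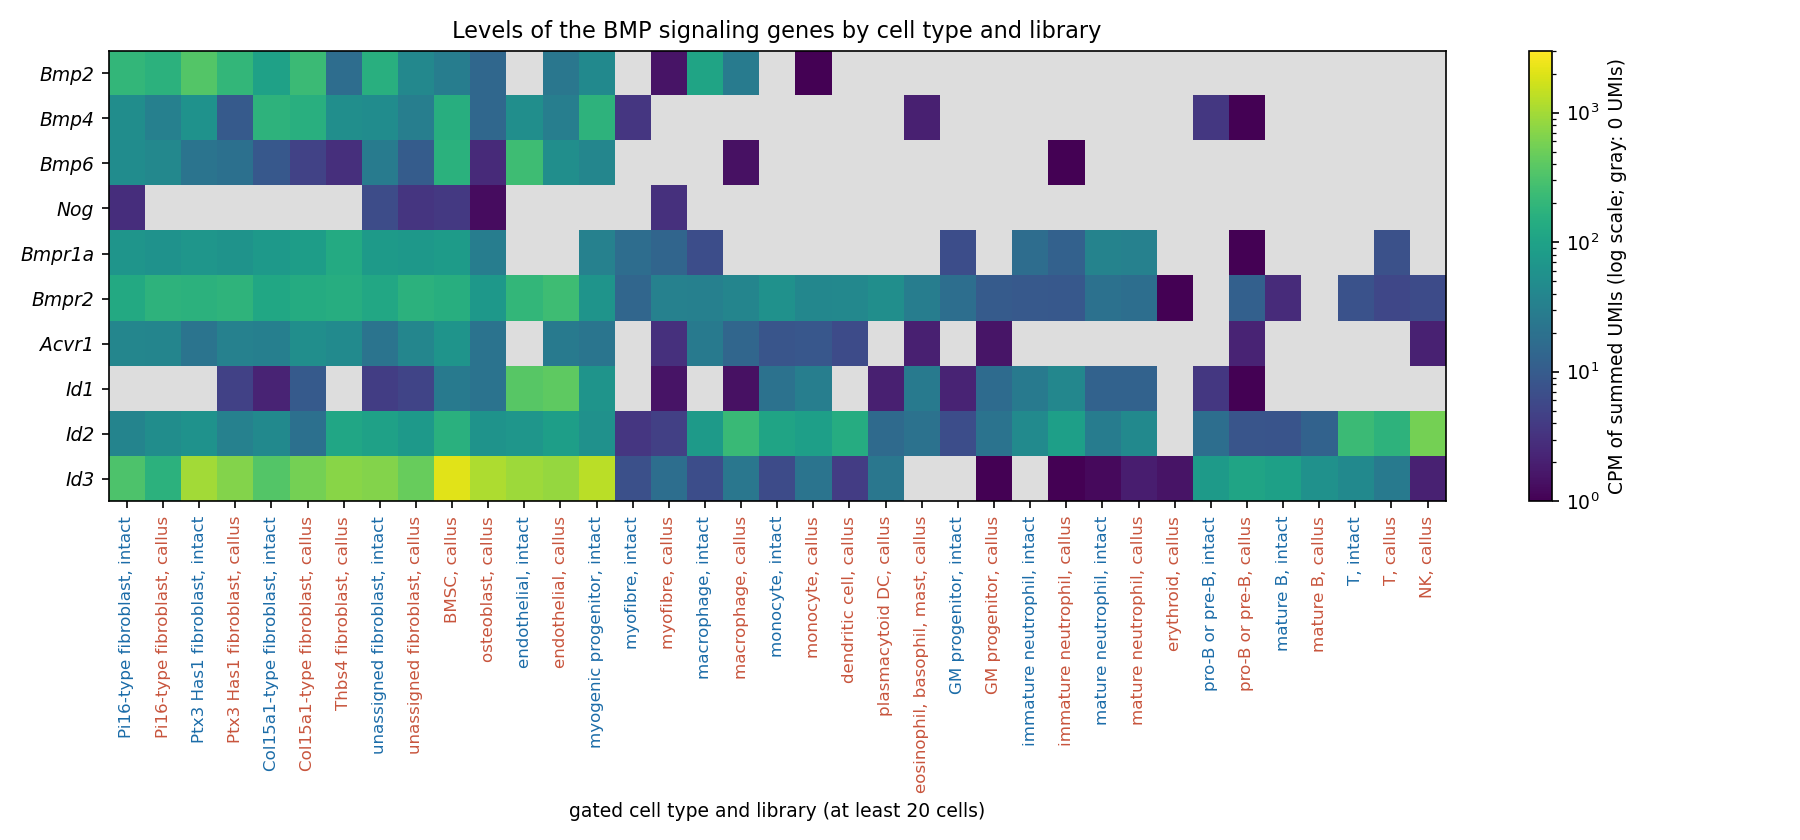
Levels of the 10 BMP genes in each gated cell type with at least 20 cells, in UMIs per 1000000 UMIs of the summed cells (CPM) on a log color scale, with intact and callus columns side by side and gray for 0 UMIs. The highest column of each ligand and receptor was a fibroblast, BMSC, endothelial or myogenic progenitor one, but not all such columns were high, and *Bmpr1a* had 0 UMIs in endothelial cells. *Id3* was highest in BMSCs, and *Id1* in endothelial cells.

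*Bmp2*, an osteogenic ligand (ENSMUSG00000027358, GRCm38 chromosome 2, 133552159 to 133562885, plus strand), was mainly a fibroblast transcript and was lower in callus than in intact fibroblasts. Levels are UMIs per 1000000 UMIs (CPM) of the summed cells of a type. In fibroblasts *Bmp2* stood at 189.9 CPM (interval 171 to 210; 384 UMIs) in the intact library and at 106 CPM (90.8 to 123; 178 UMIs) in the callus. The callus over intact ratio was 0.557 (0.464 to 0.667), with intervals apart, and fibroblasts held 92.8% and 67.7% of all *Bmp2* UMIs of their library. Among intact subtypes the order was *Ptx3* *Has1* cells (348 CPM, 290.3 to 413), *Pi16*-type cells (201, 169 to 237), unassigned fibroblasts (155, 121 to 195) and *Col15a1*-type cells (96.4, 69.8 to 129.9). The intervals of *Pi16*-type and unassigned cells overlapped, as did those of unassigned and *Col15a1*-type cells, and only *Ptx3* *Has1* cells stood apart from all others.

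The *Bmp2* ratio differed among the subtypes. In *Ptx3* *Has1* cells it was 200.1 CPM (144 to 270.4) in the callus, a ratio of 0.575 (0.396 to 0.821). In *Pi16*-type cells it was 169.9 CPM (129 to 220.1) in the callus, a ratio of 0.847 (0.611 to 1.16) whose interval spans equal levels. In the callus 1 cell held 16 of the 57 *Pi16*-type UMIs, and 1 cell 14 of the 42 *Ptx3* *Has1* UMIs. In the intact library the leading cells held 14 of 139 and 16 of 129. The ratios of these subtypes without their leading cells were not calculated. In unassigned fibroblasts *Bmp2* was 42.5 CPM (27.5 to 62.8) in the callus, the lowest ratio of the subtypes at 0.274 (0.167 to 0.438). *Col15a1*-type cells went the other way, with 232 CPM (171 to 307) in the callus and a ratio of 2.40 (1.56 to 3.71), but 31 of the 48 callus UMIs came from 1 cell and the ratio without it was 1.01. *Bmp2* was also low in the *Thbs4* cells that made up more of the callus fibroblasts (17.5 CPM, 6.44 to 38.2). With each callus subtype weighted by its share of the intact fibroblasts' UMIs, a calculation added after seeing the data, the *Bmp2* ratio was 0.822. This weighting kept the *Col15a1*-type cell with 31 UMIs, and the weighted ratio without that cell was not calculated.

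Outside fibroblasts, *Bmp2* was found in few cells. Myogenic progenitors had 45.4 CPM (19.6 to 89.5; 8 UMIs in 3 of 22 cells) in the intact library. In the callus they had 52.7 CPM (19.3 to 115; 6 UMIs in 3 of 12 cells). Callus BMSCs had 29.8 CPM (12.9 to 58.8) and osteoblasts 14.4 CPM (7.21 to 25.8). Endothelial cells had 0 UMIs in the intact library, which allows up to 39.7 CPM, and 24.2 CPM (12.5 to 42.3) in the callus, where 8 of 12 UMIs came from 1 cell. Among blood cells *Bmp2* was in macrophages, at 106 CPM (60.6 to 172) in the intact library and 28.3 CPM (17.3 to 43.6) in the callus, a ratio of 0.266 (0.131 to 0.550). These rest on 16 and 20 UMIs in 5 and 8 cells, with 10 and 9 of them in 1 cell. Of the 10 fibroblast markers 5 and 8 were detected in macrophages, and the list summed to 46.4 and 59.3 CPM there, against 31454 and 46539 CPM in fibroblasts, and the part of fibroblast RNA in these UMIs was not tested. Neutrophils, granulocyte-monocyte progenitors, B, T, NK, dendritic and erythroid cells had no *Bmp2* UMI in either library, and monocytes had 0 and 1.

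*Bmp4* (ENSMUSG00000021835, chromosome 14, 46383520 to 46390669, minus strand), the closest relative of *Bmp2* among the ligands, was highest among fibroblasts in the *Col15a1*-type. These cells had 175 CPM (138 to 218) in the intact and 154 CPM (106 to 218) in the callus library, a ratio of 0.883 (0.566 to 1.35). *Pi16*-type cells had 50.5 CPM (35.2 to 70.2) and 32.8 CPM (16.4 to 58.7), and unassigned fibroblasts 49.5 CPM (31.4 to 74.3) and 30.6 CPM (18.1 to 48.4). In both libraries the *Col15a1*-type interval lay above those of the other gated fibroblasts with at least 20 cells, in which the order was unlike that of *Bmp2*.

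In *Ptx3* *Has1* cells *Bmp4* was 59.3 CPM (37.2 to 89.8; 22 UMIs) in the intact and 9.53 CPM (1.15 to 34.4; 2 UMIs) in the callus library, a ratio of 0.161 (0.0183 to 0.654). Over all fibroblasts *Bmp4* was 79.6 CPM (67.8 to 92.9) in the intact and 48.1 CPM (38.2 to 59.8) in the callus library, a ratio of 0.605 (0.457 to 0.795) with intervals apart. Callus BMSCs reached 153 CPM (109.8 to 207), of which 13 of 41 UMIs came from 1 cell, and 108 CPM without that cell. Myogenic progenitors, the muscle stem and precursor cells, were as high, with 176 CPM (119 to 249.7) in 22 intact cells and 149 CPM (86.9 to 239) in 12 callus cells. Endothelial cells had 52.9 CPM (14.4 to 135) and 30.3 CPM (16.9 to 49.9), osteoblasts 14.4 CPM (7.21 to 25.8), and all blood cells together 2 UMIs in each library.

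*Bmp6* (ENSMUSG00000039004, chromosome 13, 38345107 to 38500302, plus strand), best known as the endothelial ligand that tells the liver to make hepcidin, had its highest levels in intact endothelial cells and callus BMSCs. Fibroblasts, which are more numerous, held 67.0% of its UMIs in the intact and 22.2% in the callus library, endothelial cells 21.6% and 22.2%, and BMSCs 37.6% in the callus. Endothelial cells had 251 CPM (151 to 392; 19 UMIs in 12 of 29 cells) in the intact library and 52.5 CPM (34.3 to 76.9; 26 UMIs in 19 of 103 cells) in the callus. The ratio was 0.209 (0.111 to 0.399), and the intervals were apart. After each cell was thinned to 2000 UMIs, so that depth was equal, *Bmp6* was in 37.6% (14.2 to 61.7) of 17 intact and 9.30% (4.10 to 17.5) of 86 callus endothelial cells, against 41.4% and 18.4% before thinning. These thinned intervals overlap, and 12 and 17 shallower cells were left out. Of the 8 mature neutrophil markers 7 and 4 were detected in intact and callus endothelial cells, with sums of 754 and 12.1 CPM, and their part in the result was not tested. Mature neutrophils themselves had no *Bmp6* UMI.

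Callus BMSCs had *Bmp6* at 164 CPM (119 to 220.4; 44 UMIs in 24 of 41 cells, at most 5 in 1 cell), and thinned in 28.7% (14.2 to 45.2) of 36 cells. The CPM interval was above those of callus endothelial cells and of callus osteoblasts, which had 2 UMIs (2.63 CPM, 0.318 to 9.49). The thinned interval overlapped both, with 3.60% (0.0744 to 15.3) of 34 osteoblasts. Mature neutrophil markers summed to 746 CPM and immature neutrophil markers to 2690 CPM in BMSCs, against 11.3 and 94.5 CPM in callus fibroblasts. The part of neutrophil RNA in the BMSC levels of this and the other genes was not tested. Myogenic progenitors had *Bmp6* at 39.7 CPM (15.97 to 81.8) and 52.7 CPM (19.3 to 115). Fibroblasts had 29.2 CPM (22.2 to 37.6) and 15.5 CPM (10.1 to 22.6), a ratio of 0.530 (0.320 to 0.854). The *Pi16*-type had the highest fibroblast values, with 49.1 CPM (34.0 to 68.6) and 41.7 CPM (22.8 to 70.0). In the callus, the intervals of myogenic progenitors and of *Pi16*-type cells overlapped that of endothelial cells. *Col15a1*-type cells had 8.97 CPM (2.44 to 23.0) and 4.83 CPM (0.122 to 26.9), apart from the *Pi16*-type in the intact library only. *Ptx3* *Has1* cells, with 21.6 CPM (9.31 to 42.5) and 19.1 CPM (5.19 to 48.8), overlapped the *Pi16*-type in both libraries. Intact unassigned fibroblasts (28.0 CPM, 14.9 to 47.9) also overlapped it. Blood cells held 0 and 3 UMIs.

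**Figure D2:**
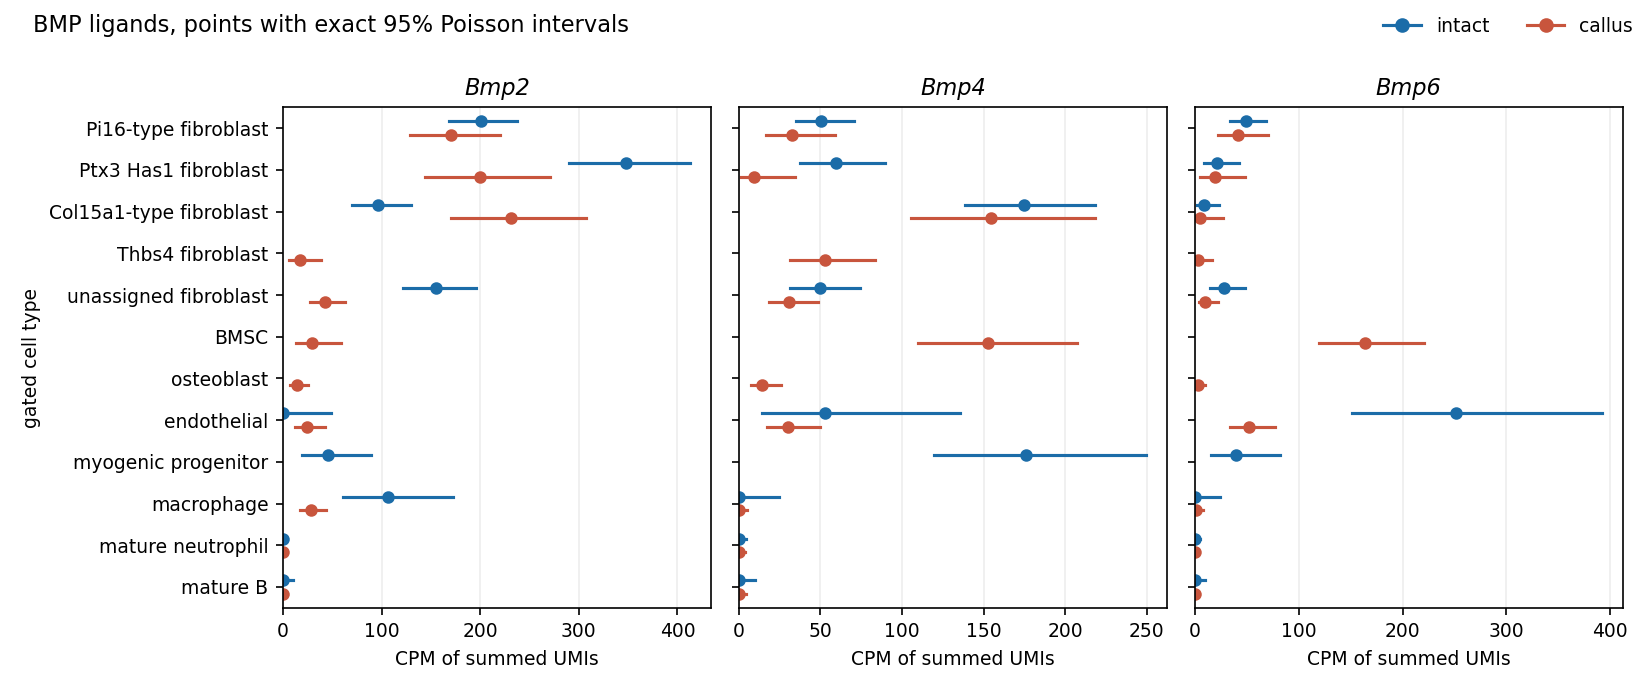
Levels of *Bmp2*, *Bmp4* and *Bmp6* by gated cell type in CPM of summed UMIs, intact in blue and callus in red, with exact Poisson intervals as bars. *Bmp2* peaked in intact *Ptx3* *Has1* cells (348 CPM), *Bmp4* was high in *Col15a1*-type cells of both libraries (175 and 154 CPM), and *Bmp6* was high in intact endothelial cells (251 CPM) and callus BMSCs (164 CPM).

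After thinning to equal depth, a minority of fibroblasts showed a ligand and few showed both *Bmp2* and *Bmp4*, while both shares were larger before thinning. In cells thinned to 2000 UMIs, at least 1 of *Bmp2*, *Bmp4* and *Bmp6* was detected in 36.1% (30.2 to 42.2) of 261 intact and 22.8% (17.0 to 29.2) of 194 callus fibroblasts, with intervals apart. Before thinning the shares were 62.0% and 45.5%, at median depths of 7407 and 7665 UMIs. *Bmp2* and *Bmp4* were detected together in 3.18% and 0.884% of the thinned cells, and in 17.4% and 6.16% of the cells before thinning. Among intact fibroblasts *Bmp4* was in 14.1% (6.04 to 25.0) of those with and 12.7% (8.58 to 18.3) of those without *Bmp2*, and in the callus in 7.40% (1.07 to 28.0) and 9.78% (5.90 to 15.4), so detection of one ligand was not separated by the other.

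By subtype, the thinned share with any of the 3 ligands was 46.9% (30.7 to 62.6) in intact and 24.1% (9.77 to 46.7) in callus *Ptx3* *Has1* cells. It was 39.1% (27.0 to 53.4) and 38.0% (21.5 to 59.4) in *Col15a1*-type cells, and 37.4% (28.1 to 48.4) and 29.0% (16.4 to 44.3) in *Pi16*-type cells. The intervals of the 2 libraries overlapped in each of these subtypes. Callus *Thbs4* cells had 14.9% (5.28 to 32.8), callus BMSCs 41.5% (25.5 to 59.2), and mature neutrophils (175 and 212 cells, median depths 4130 and 4156.5 UMIs) and mature B cells (115 and 271) had 0 in both libraries.

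*Nog* (ENSMUSG00000048616, chromosome 11, 89300638 to 89302332, minus strand) encodes Noggin, a secreted protein that binds BMP ligands and keeps them from their receptors. It had 11 UMIs in all analysed cells. The 5 intact UMIs were in 3 fibroblasts (2.47 CPM, 0.803 to 5.77), and the 6 callus UMIs were in 1 fibroblast, 1 BMSC, 1 osteoblast and 2 myofibre cells. Differences among the types with a UMI were not detectable at this depth.

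*Bmpr1a* (ENSMUSG00000021796, chromosome 14, 34410734 to 34503341, minus strand), the type I receptor also called ALK3, was found in every fibroblast subtype and had no endothelial UMI. Fibroblasts had 71.2 CPM (60.05 to 83.8) in the intact and 82.0 CPM (68.9 to 96.9) in the callus library, a ratio of 1.15 (0.905 to 1.47). The 4 subtypes compared between libraries lay between 59.6 and 86.9 CPM with overlapping intervals, and callus *Thbs4* cells had 132 CPM (96.0 to 176), apart from callus *Pi16*-type cells (59.6 CPM, 36.4 to 92.1). Callus BMSCs had 82.1 CPM (51.4 to 124) and osteoblasts 30.2 CPM (19.1 to 45.3), the lowest value of the callus stromal types.

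Endothelial cells had no *Bmpr1a* UMI in either library, which allows up to 39.7 CPM in the 29 intact and 6.06 CPM in the 103 callus cells. The callus limit lay below the fibroblast interval, and the intact one did also. Among blood cells *Bmpr1a* was in the neutrophil lineage, where intact and callus mature neutrophils had 35.9 CPM (24.0 to 51.5) and 33.3 CPM (23.2 to 46.3). Immature neutrophils had 17.6 CPM (10.9 to 27.0) in the intact library and 11.96 CPM (9.36 to 15.1) in the callus. The 55 and 380 monocytes had none, nor had mature B cells.

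*Bmpr2* (ENSMUSG00000067336, chromosome 1, 59763400 to 59879014, plus strand), the type II receptor whose mutation causes heritable pulmonary arterial hypertension, was found in nearly every type. Endothelial cells had the highest level, at 198 CPM (111 to 327) in the intact and 250.3 CPM (208 to 298) in the callus library. Fibroblasts had 133 CPM (118 to 149.9) and 165 CPM (146 to 185), a ratio of 1.24 (1.04 to 1.47). The endothelial and fibroblast intervals were apart in the callus and overlapped in the intact library. The annotated *Bmpr2* locus overlaps *Gm38125* on the same strand, and the effect of this overlap on the *Bmpr2* counts was not tested.

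Callus BMSCs had *Bmpr2* at 149 CPM (107 to 203) and osteoblasts at 72.2 CPM (54.4 to 94.0), again the lower of the bone-lineage pair. Monocytes had 57.4 CPM (38.2 to 83.0) and 40.5 CPM (34.3 to 47.6), callus plasmacytoid dendritic cells 52.2 CPM (34.1 to 76.5) and macrophages 33.1 CPM (10.8 to 77.3) and 38.1 CPM (25.1 to 55.5), while neutrophils of both stages lay between 9.13 and 19.8 CPM. Mature B cells had 1 and 0 UMIs.

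*Acvr1* (ENSMUSG00000026836, chromosome 2, 58388644 to 58567157, minus strand), the type I receptor ALK2, had low counts. Stromal types together held 80% of its UMIs in the intact and 47.9% in the callus library. Blood cells, which are more numerous, held 12.5% and 34.2%. Fibroblasts had 30.2 CPM (23.1 to 38.7) in the intact and 41.6 CPM (32.4 to 52.6) in the callus library, a ratio of 1.38 (0.965 to 1.98) whose interval spans equal levels. BMSCs had 63.4 CPM (36.9 to 101) and osteoblasts 21.0 CPM (12.01 to 34.1). Endothelial cells had 0 UMIs (up to 39.7 CPM) and 26.2 CPM (14.0 to 44.9), and monocytes 8.21 CPM (2.24 to 21.0) and 8.71 CPM (5.95 to 12.3). Neutrophils, T cells and mature B cells had none.

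**Figure D3:**
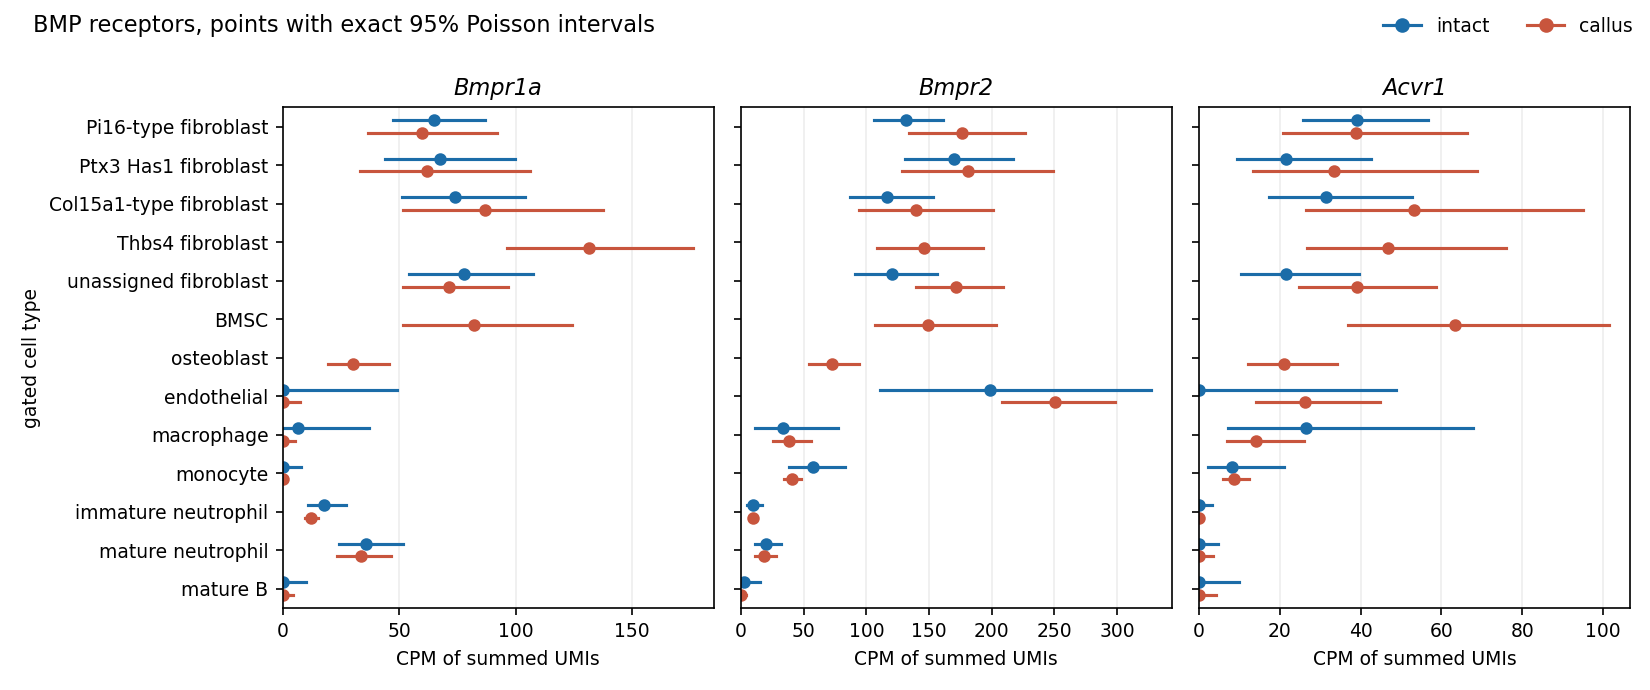
Levels of the receptors *Bmpr1a*, *Bmpr2* and *Acvr1* by gated cell type in CPM of summed UMIs, with exact Poisson intervals. *Bmpr1a* was at 0 in endothelial cells of both libraries, where *Bmpr2* reached 198 and 250.3 CPM.

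Id proteins bind E proteins such as Tcf3 and Tcf4 and keep them from DNA, which holds many lineages in an undifferentiated state. The 3 genes followed different cell types. *Id1* (ENSMUSG00000042745, chromosome 2, 152736251 to 152737410, plus strand) had its highest level in endothelial cells and was almost missing from fibroblasts. Blood cells, which are more numerous, held 58% of its UMIs in the intact and 66.0% in the callus library, and endothelial cells 28% and 25.3%. Endothelial cells had 370.3 CPM (246 to 535; 28 UMIs) in the intact and 414 CPM (359 to 475; 205 UMIs) in the callus library, a ratio of 1.12 (0.751 to 1.72). Of the intact UMIs 13 were in 1 cell, and without the leading cell of each library the ratio was 1.83. In thinned cells *Id1* was in 31.1% (10.3 to 56.0) of 17 intact and 43.8% (33.5 to 55.3) of 86 callus endothelial cells, against 41.4% and 59.2% before thinning.

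The 287 intact fibroblasts had 3 *Id1* UMIs (1.48 CPM, 0.306 to 4.34) and the 211 callus fibroblasts 6 (3.57 CPM, 1.31 to 7.76). Blood cells together had 12.6 CPM (9.53 to 16.2) and 18.7 CPM (17.2 to 20.4), so that *Id1* was lower in fibroblasts than in blood, by ratios of 0.118 (0.0237 to 0.363) and 0.190 (0.0695 to 0.417). Callus BMSCs had 26.1 CPM (10.5 to 53.8) and osteoblasts 21.0 CPM (12.01 to 34.1), the latter with 8 of 16 UMIs in 1 cell. Myogenic progenitors had 62.4 CPM (31.2 to 112) and 105 CPM (54.4 to 184).

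Within blood, *Id1* was a myeloid transcript. Immature neutrophils had 26.1 CPM (17.7 to 37.0) and 40.5 CPM (35.6 to 45.9), a ratio of 1.56 (1.07 to 2.34), and held 31.0% and 30.1% of all *Id1* UMIs of their library. The log2 of this ratio was 0.64, beside a median of 0.41 over all genes tested in immature neutrophils. Monocytes had 20.5 CPM (9.84 to 37.7) and 31.0 CPM (25.6 to 37.2), and mature neutrophils 12.4 CPM (5.93 to 22.7) and 12.4 CPM (6.59 to 21.1). Granulocyte-monocyte progenitors had 1 UMI in 20 intact cells (2.24 CPM, 0.0567 to 12.5) and 147 in 274 callus cells (16.4 CPM, 13.9 to 19.3), a ratio of 7.34 with an interval from 1.30 to 292. T, NK, mature B, dendritic and erythroid cells had no *Id1* UMI, and macrophages had 0 and 1.

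*Id2* (ENSMUSG00000020644, chromosome 12, 25093799 to 25097140, minus strand), which innate lymphocytes need to develop, was highest in NK cells and low in B cells. The 13 intact NK cells had 584 CPM (407 to 812) and the 88 callus ones 562 CPM (497 to 633), and T cells 238 CPM (163 to 336) and 179 CPM (145 to 218). Mature B cells had 7.995 CPM (1.65 to 23.4) and 12.3 CPM (6.13 to 21.97), and pro-B or pre-B cells 18.3 and 8.26 CPM. In thinned cells *Id2* was in 63.0% (34.9 to 90.1) and 60.6% (49.99 to 71.6) of NK cells, against 1.496% (0.211 to 6.14) and 1.71% (0.602 to 4.25) of mature B cells. Fibroblasts had 59.8 CPM (49.6 to 71.5) and 66.0 CPM (54.3 to 79.5), a ratio of 1.10 (0.845 to 1.44), and overlapped with blood as a whole (49.8 CPM, 43.6 to 56.6, and 64.9 CPM, 61.9 to 67.9). Endothelial cells had 66.1 CPM (21.5 to 154) and 88.8 CPM (64.5 to 119).

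Macrophages and immature neutrophils had more *Id2* in the callus library. Macrophages had 79.5 CPM (41.1 to 139; 12 UMIs) in the intact and 230.3 CPM (196 to 268; 163 UMIs) in the callus library, a ratio of 2.90 (1.61 to 5.72). Immature neutrophils had 46.2 CPM (34.8 to 60.2) and 92.7 CPM (85.1 to 101), a ratio of 2.01 (1.52 to 2.70), which was 1.99 after removal of likely doublets. Intervals were apart in both types. In immature neutrophils the median log2 ratio over all genes tested was 0.41, against 1.00 for *Id2*, and in macrophages the median was 0.04. Mature neutrophils overlapped, at 28.4 CPM (18.0 to 42.7) and 44.7 CPM (32.9 to 59.5). Monocytes also overlapped, at 109 CPM (81.5 to 142) and 90.9 CPM (81.4 to 101), and callus dendritic cells had 142 CPM (110.5 to 180.4). Of the 160.4 CPM (116 to 216) in callus BMSCs, 31 of 43 UMIs were in 1 cell, and the level without it was 46.8 CPM.

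*Id3* (ENSMUSG00000007872, chromosome 4, 136143497 to 136145755, plus strand) was the *Id* gene with the highest level in fibroblasts, BMSCs and osteoblasts. In the callus, BMSCs led with 2119 CPM (1948 to 2301), followed by myogenic progenitors (1623 CPM, 1398 to 1875, 12 cells), osteoblasts (1136 CPM, 1062 to 1214), endothelial cells (839.9 CPM, 761 to 925) and fibroblasts (499.9 CPM, 467 to 535). Neighbours in this order, which takes types with at least 10 cells, had intervals apart, and 2 chondrocytes had 1818 CPM (1497 to 2187), overlapping BMSCs and myogenic progenitors. Of the 185 callus myogenic progenitor UMIs 53 were in 1 cell, and the order without that cell was not tested. Thinned, *Id3* was in 84.2% (67.2 to 93.6) of 36 BMSCs and 78.4% (62.1 to 91.3) of 34 osteoblasts, against 0.387% (0.0119 to 2.60) of 212 mature neutrophils. In the intact library myogenic progenitors had 1311 CPM (1147 to 1491), endothelial cells 939 CPM (733 to 1184) and fibroblasts 541 CPM (509.8 to 575). Of the 231 intact myogenic progenitor UMIs 60 were in 1 cell.

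Over all fibroblasts *Id3* was alike in level between the libraries, with a ratio of 0.923 (0.843 to 1.01), while the ratio lay below 1 in some subtypes and above it in another. *Ptx3* *Has1* cells had 984 CPM (886 to 1090) in the intact and 686 CPM (579 to 808) in the callus library, a ratio of 0.697 (0.571 to 0.848). *Pi16*-type cells had 319 CPM (278 to 364) and 173 CPM (131 to 224), a ratio of 0.542 (0.399 to 0.727), and unassigned cells 674 CPM (602 to 753) and 471 CPM (417 to 530), a ratio of 0.699 (0.592 to 0.824). *Col15a1*-type cells had 357 CPM (303 to 417) in the intact and 555 CPM (458 to 666) in the callus library, a ratio of 1.56 (1.21 to 1.99). In all 4 subtypes the intervals were apart with every cell included. However, 1 cell held 29 of the 115 callus *Col15a1*-type UMIs. Likewise, 1 cell held 61 of the 365 intact *Ptx3* *Has1* UMIs and 1 cell 36 of the 221 intact *Pi16*-type UMIs. Whether the intervals stay apart without these cells was not tested. Callus *Thbs4* cells had 722 CPM (635 to 818), and with the callus subtypes weighted as in the intact library the *Id3* ratio was 0.799.

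Immediate-early and stress genes, which tissue digestion also induces, were summed beside the *Id* genes because *Id* transcripts respond fast to many stimuli. The 22 listed genes summed to 28521 CPM in intact and 27344 CPM in callus fibroblasts. By subtype they were 18447 and 17640.5 CPM in *Pi16*-type, 33792 and 34313 CPM in *Ptx3* *Has1* and 40208 and 29249 CPM in *Col15a1*-type cells. Among types with high *Id3* they were 13501 CPM in BMSCs, 12625 CPM in osteoblasts and 40821 and 33136 CPM in myogenic progenitors. Endothelial cells, which had the highest *Id1*, had 24397 and 16615.5 CPM, and callus *Thbs4* cells 34676 CPM. In immature neutrophils they were 2764 and 2056 CPM, and in macrophages 30837 and 22700.4 CPM. Their part in the *Id* results was not tested.

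Blood cells had *Id3* mainly in the B lineage, where intact mature B cells had 93.3 CPM (65.0 to 129.7) and callus ones 56.9 CPM (42.4 to 74.9). Pro-B or pre-B cells had 78.8 CPM (57.0 to 106) in the intact library and 109 CPM (96.4 to 122) in the callus. Monocytes had 3 UMIs (6.16 CPM, 1.27 to 18.0) in the intact and 79 (21.5 CPM, 17.0 to 26.8) in the callus library, a ratio of 3.49 (1.15 to 17.3), with 15 of the callus UMIs in 1 cell. Mature neutrophils had 1 and 2 UMIs, and immature neutrophils 0 and 2.

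Detection of *Id3* was not separated by detection of a ligand in the same cell. In thinned intact fibroblasts *Id3* was in 46.5% (36.4 to 57.4) of cells with *Bmp2*, *Bmp4* or *Bmp6* and in 45.0% (37.2 to 52.8) of those without. In the callus it was in 32.0% (18.6 to 47.6) and 44.6% (36.6 to 53.0). In callus endothelial cells *Id3* was in 73.7% (56.9 to 86.6) of cells with and 65.1% (49.5 to 77.8) of cells without *Id1*. Each pair of intervals overlapped.

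The promoters of *Id3* and *Id2* are shown because *Id3* was highest in callus BMSCs and *Id2* in NK cells, and because both held letters that were searched for. Capitals mark GGCGCC, the GC-rich letters Smad1 and Smad5 are known to bind, and CAGAC, the Smad box, on either strand (GTCTG is CAGAC read from the other strand). The sequences are RefSeq promoters of GRCm38.p6, from 250 bases before to 50 after each gene's start, at chr4:136143572-136143871 on the plus strand for *Id3* and chr12:25096043-25096342 on the minus strand for *Id2*. RefSeq's start of both genes lies inside the gene positions given above, which are from another annotation and begin further upstream.
Id3: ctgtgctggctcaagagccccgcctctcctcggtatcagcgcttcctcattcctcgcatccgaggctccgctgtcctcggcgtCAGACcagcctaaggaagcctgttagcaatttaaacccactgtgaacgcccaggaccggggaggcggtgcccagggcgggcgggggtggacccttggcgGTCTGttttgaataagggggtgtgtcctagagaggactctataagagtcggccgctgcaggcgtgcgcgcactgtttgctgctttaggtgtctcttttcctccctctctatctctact
Id2: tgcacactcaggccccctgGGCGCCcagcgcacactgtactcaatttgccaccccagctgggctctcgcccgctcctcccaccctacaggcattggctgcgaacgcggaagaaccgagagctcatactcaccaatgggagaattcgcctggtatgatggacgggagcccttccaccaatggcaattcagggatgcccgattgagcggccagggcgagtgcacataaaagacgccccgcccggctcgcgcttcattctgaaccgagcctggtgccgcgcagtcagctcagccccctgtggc
*Id3* held 2 Smad boxes, with first bases 167 and 68 before the start and 1 on each strand, and no GGCGCC. *Id2* held 1 GGCGCC, 231 bases before the start, and no CAGAC. Of the 10 genes 7 matched this set of promoters: *Bmp6* held 1 CAGAC, *Bmpr1a* and *Bmpr2* 1 GGCGCC each, and *Bmp4* and *Acvr1* neither, while *Bmp2*, *Nog* and *Id1* were not matched. Of all 32851 promoters of this length, 49.6% held CAGAC, 16.2% held it at least 2 times and 11.9% held GGCGCC. A match describes letters and not a bound site.

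**Figure D4:**
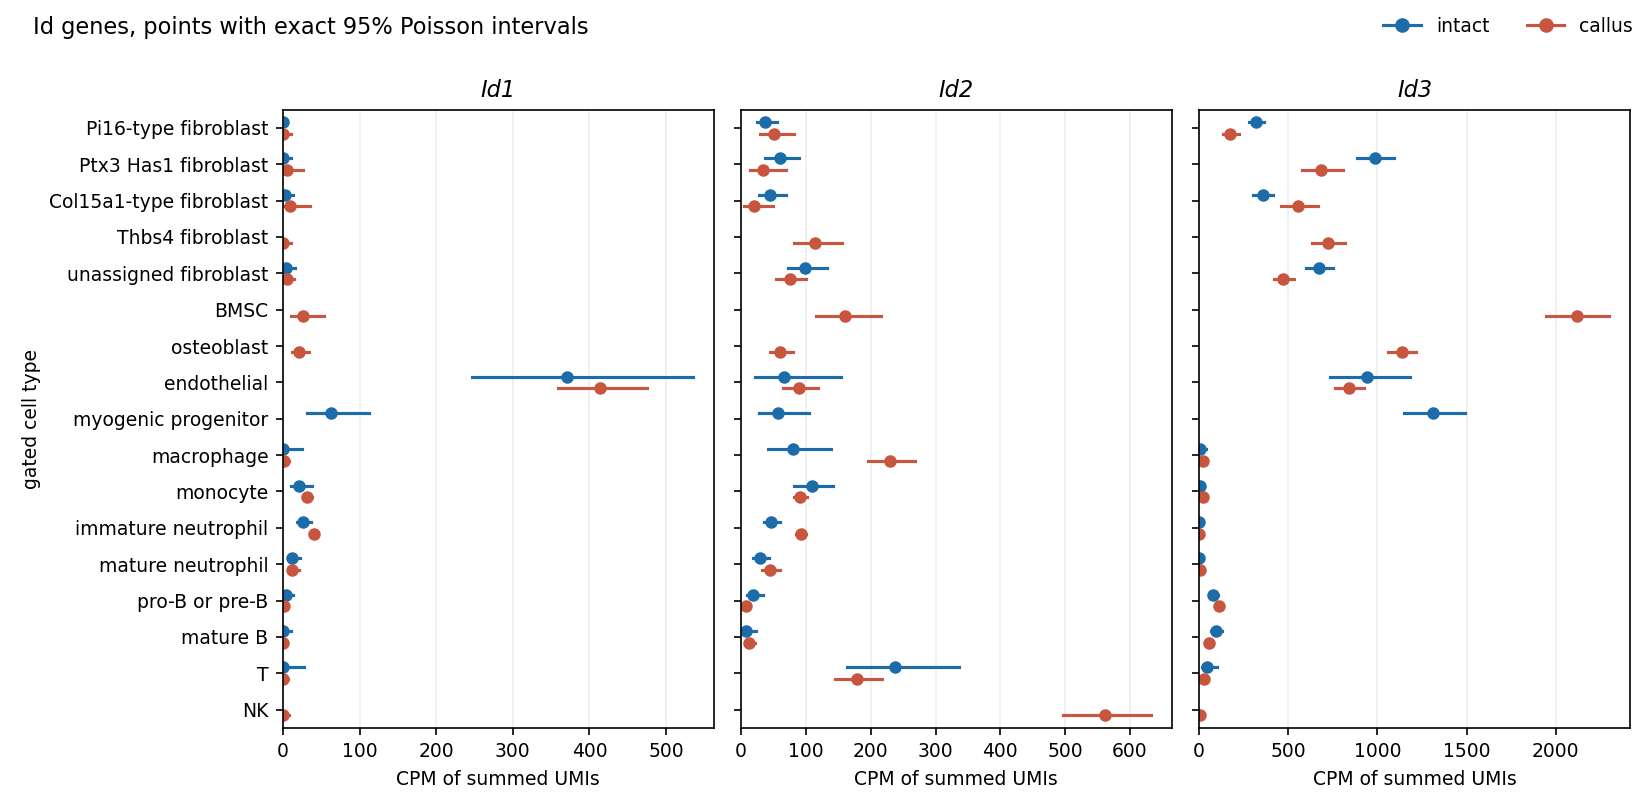
Levels of *Id1*, *Id2* and *Id3* by gated cell type in CPM of summed UMIs, intact in blue and callus in red, with exact Poisson intervals. *Id1* was highest in endothelial cells (370.3 and 414 CPM), *Id2* in NK cells (562 CPM in the callus) and *Id3* in callus BMSCs (2119 CPM).

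Most of the genes were higher in fibroblasts than in blood cells. Of the 9 genes with at least 20 UMIs in these cells, 7 were higher in fibroblasts with intervals apart in both libraries, beside 27% of 14083 genes. *Id1* alone was lower, beside 17.3% of all genes, and *Id2* overlapped. *Nog* had 5 and 2 UMIs in fibroblasts and 0 in blood. The fold over blood was 54.8 (33.3 to 96.9) in the intact and 144 (91.3 to 238) in the callus library for *Bmp2*, and 25.5 (20.7 to 31.7) and 29.9 (26.7 to 33.5) for *Id3*. It was 6.09 (4.43 to 8.49) and 20.5 (15.9 to 26.6) for *Bmpr1a*, 8.31 (6.40 to 10.9) and 10.5 (8.98 to 12.2) for *Bmpr2*, and 13.9 (7.09 to 30.5) and 15.8 (11.3 to 22.2) for *Acvr1*. *Bmp6*, with no intact blood UMI, was 44.9-fold higher in intact fibroblasts against the limit of 3 counts, and the exact interval of the fold began at 35.4.

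No BMP gene was at least 2-fold apart between the libraries in fibroblasts as a whole, and 1 or 2 genes were in several other types. A gene was counted where its callus over intact ratio was at least 2-fold and it had at least 20 UMIs in the 2 libraries of a type. In fibroblasts 8 of the 10 genes had enough UMIs, and 0 were higher and 0 lower by this rule, beside 4.47% of 9971 genes higher and 2.76% lower. Their median log2 ratio was 0.01, against 0.03 over all genes tested, with the 3 ligands below equality (−0.84, −0.73 and −0.92 for *Bmp2*, *Bmp4* and *Bmp6*) and the 3 receptors above it (0.20, 0.31 and 0.46 for *Bmpr1a*, *Bmpr2* and *Acvr1*). The receptor values rest on intervals of which only that of *Bmpr2* lay above equal levels.

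By fibroblast subtype, 8 genes were tested in *Pi16*-type cells, with 0 higher (3.14% of all genes) and 0 lower (4.36%). In *Ptx3* *Has1* cells 1 of 6, *Bmp4*, was lower (6.41%) and 0 higher (4.51%). In *Col15a1*-type cells 1 of 7, *Bmp2*, was higher (5.35%) and 1, *Id2*, lower (5.15%), the latter on 20 and 4 UMIs with a ratio of 0.430 (0.107 to 1.28). In unassigned fibroblasts 1 of 7, *Bmp2*, was lower (4.22%) and 0 higher (7.33%). With 6 to 8 genes tested in a subtype, these counts are too small to set the genes apart from the background.

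In endothelial cells 1 of 5 genes, *Bmp6*, was lower (6.08% of 4969 genes) and 0 were higher (15.2%). In macrophages 1 of 3, *Id2*, was higher (11.8%) and 1, *Bmp2*, lower (5.94%). In monocytes 1 of 5, *Id3*, was higher (11.3%) and 0 lower (2.44%), and in immature neutrophils 1 of 4, *Id2*, was higher (21.1%) and 0 lower (2.28%). In granulocyte-monocyte progenitors *Id1* and *Id2* were the 2 of 3 genes that were higher (11%) and 0 were lower (7.46%), with *Id2* at 3 and 189 UMIs and a ratio of 3.15 (1.06 to 15.4).

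In pro-B or pre-B cells 1 of 3 genes, *Bmpr2*, was higher (12%) and 1, *Id2*, lower (8.82%). *Bmpr2* had 0 and 31 UMIs there, 2.12-fold higher in the callus against the limit of 3 intact counts, and the exact interval of the ratio began at 1.62. *Id2* had a ratio of 0.451 (0.205 to 1.07), an interval that spans equal levels. In myofibre cells *Bmpr2*, the 1 gene tested, was higher (15.3%; 3.28% lower), on 4 and 22 UMIs with a ratio of 2.36 (0.8001 to 9.40). None was counted of 4 genes in mature neutrophils (7.21% higher and 1.19% lower over all genes), 1 in mature B cells (5.41% and 4%) and 2 in T cells (12.8% and 3.78%).

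**Figure D5:**
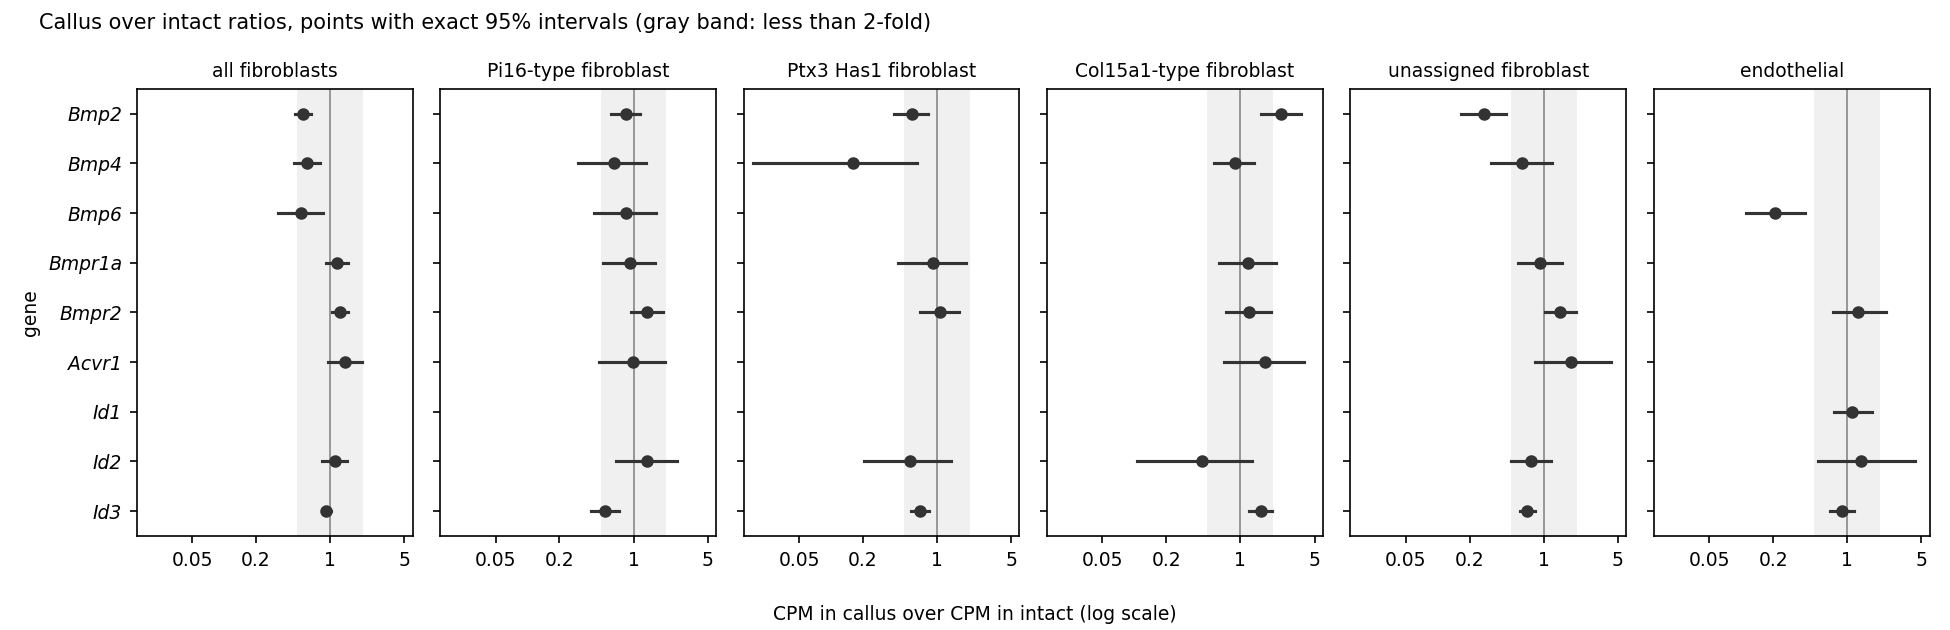
Callus over intact ratio of the BMP genes with at least 20 UMIs in a type, on a log axis, without *Nog*. Panels show all fibroblasts, *Pi16*-type, *Ptx3* *Has1*, *Col15a1*-type and unassigned fibroblasts, and endothelial cells. Bars are exact 95% intervals, with a line at equal levels and a gray band for differences under 2-fold. In fibroblasts the ligands lie left of the line (0.557, 0.605 and 0.530) and *Id3* near it (0.923).

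The other genes of the pathway, 54 listed by role, put the members in context. In fibroblasts 32 had enough UMIs, of which 1 was at least 2-fold higher in the callus and 3 were lower, beside 4.47% and 2.76% of all genes. The higher one was *Id4*, another Id gene (4.94 CPM, 2.37 to 9.09, and 12.5 CPM, 7.73 to 19.1; ratio 2.52, 1.14 to 6.004). The lower ones included the ligand *Bmp7* (31.6 and 15.5 CPM, ratio 0.488, 0.297 to 0.782) and the decoy receptor *Bambi* (30.2 and 14.3 CPM, ratio 0.473, 0.282 to 0.770). These ratios are over all fibroblasts, whose mix of subtypes differed between the libraries.

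Other ligands also split by fibroblast subtype. *Bmp3*, which opposes osteogenic BMPs, was in *Pi16*-type cells at 108 CPM (85.1 to 136) and 116 CPM (82.7 to 159) and at 0 UMIs in *Col15a1*-type cells of both libraries. *Bmp5*, an osteogenic ligand, had the opposite pattern, as *Col15a1*-type cells had 80.7 CPM (56.5 to 112) in the intact library and 135 CPM (89.8 to 195) in the callus, against 2 and 0 UMIs in *Pi16*-type cells. *Bmp7* was in *Pi16*-type cells at 47.6 CPM (32.8 to 66.9) and 56.6 CPM (34.1 to 88.4), against 1 and 0 UMIs in *Col15a1*-type cells. The intact and callus intervals of the *Pi16*-type overlapped, so the lower *Bmp7* of all callus fibroblasts was not seen within this subtype. A *Bmp7* ratio with the callus subtypes weighted as in the intact library is not given.

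Antagonists other than *Nog* were plentiful in the stroma. *Grem1*, which binds BMP2 and BMP4, had 127 UMIs in callus BMSCs (474 CPM, 395 to 564) and none in fibroblasts of either library. *Chrdl1*, of the chordin family, had 634 CPM (542 to 737) in BMSCs and 60.3 and 74.9 CPM in fibroblasts. *Fst* (follistatin) had 290.2 CPM (267 to 315) in fibroblasts of the intact library and 197 CPM (177 to 219.7) in those of the callus, and *Nbl1* had 1009 CPM (905 to 1121) in callus *Thbs4* cells. *Smoc2*, a matrix protein of the Smoc family, was high in the *Col15a1*-type, at 2619.5 CPM (2471 to 2774) in the intact library and 2075 CPM (1883 to 2280.4) in the callus.

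Endothelial cells, which lacked *Bmpr1a* counts, had the type I receptor *Acvrl1* (ALK1, which binds BMP9 and BMP10) at 159 CPM (82.0 to 277) and 121 CPM (92.4 to 156) and its co-receptor *Eng* at 529 CPM (378 to 720.3) and 505 CPM (444 to 571). *Smad1* stood at 145 CPM (72.6 to 260.3) and 291 CPM (245 to 342) and the inhibitory *Smad7* at 225 CPM (131 to 359.9) and 194 CPM (157 to 237). *Tcf4*, an E protein that Id proteins bind, had 1494 CPM (1231 to 1796) and 1801 CPM (1685 to 1923). *Acvrl1* was also found in mature neutrophils (82.9 CPM, 64.2 to 105, and 108 CPM, 89.5 to 130.3), the blood cells with *Bmpr1a*. Of the 54 genes 17 could be compared in endothelial cells, and 3 were at least 2-fold higher in the callus and 1 lower, beside 15.2% and 6.08% of all genes.

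In bone-lineage cells of the callus, pathway targets differed between BMSCs and osteoblasts. *Id4* had 351 CPM (283 to 429) in BMSCs and 14.4 CPM (7.21 to 25.8) in osteoblasts. *Bambi* went the other way, with 26.1 CPM (10.5 to 53.8) and 477 CPM (429 to 528). *Dlx5*, an osteoblast transcription factor, had 131 CPM (90.9 to 182) and 102 CPM (81.0 to 128), and the inhibitory *Smad6* 82.1 CPM (51.4 to 124) and 57.8 CPM (42.0 to 77.6), with overlapping intervals. Fibroblasts had 1 and 0 *Dlx5* UMIs.

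Genes with the most similar pattern were ranked by the Pearson correlation of log2(CPM + 10) over 37 pools, each a cell type in 1 library with at least 20 cells, among 10426 genes. These pools share libraries and depth, so r is a description. *Bmp2* was closest to *Creb5* (r = 0.939), *Rnase4* and *Pmp22*, and *Bmp4* to *Spats2l* (0.944), *Sned1* and *Nectin3*. *Bmp6* was closest to *Fam13c* (0.892), *Car8* and *Bvht*, *Id1* to *Aplnr* (0.821), *Mmrn2* and *Cyyr1*, and *Id3* to *Ccn1* (0.915), *2700081O15Rik* and *Cald1*. For *Id2* the closest gene, *Tpst2*, reached 0.692, the lowest first rank of the set. *Bmpr1a* was closest to *Olfml2b* (0.917), *Bmpr2* to *Cdc42bpb* (0.940) and *Acvr1* to *Cbr3* (0.938), and *Nog*, with 11 UMIs, was not ranked.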

How the data were processed

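The data are 10× Chromium 3′ version 3 single-cell RNA-seq of tdTomato-sorted mouse cells. Cell Ranger (6.0.0 per the file headers, genome build mm10 per the labels) was run by the authors, who deposited raw UMI counts per gene and cell. The paper also names Seurat, and its cell filter is not given in the sources used here. Positions are from GENCODE for GRCm38.

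A cell was kept if it had 500 genes or more and no more than 10% of its UMIs from mitochondrial genes. A cell's score for a marker list was the mean z-score of its log counts per 10000 UMIs. A type needed 3 detected markers and a score of at least 0.5, and the highest score won. Cells in which another lineage passed with at least 50% of the top score were set aside as mixed (12 intact, 74 callus), and 32 and 65 cells stayed ungated. Fibroblast subtypes needed a score of 0.2 and a lead of 0.25, with 64 fibroblasts per library near a limit. The members and lists were chosen with earlier results of these data known, and the gate limits were set after clusters of these cells had been seen.

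UMIs were summed per type and library and given as CPM with exact Poisson intervals, ratios with exact conditional binomial intervals, and shares of cells with exact Clopper-Pearson intervals, all at 95%. Where no UMI was found, the limit is that of 3 UMIs. Shares were thinned to 2000 UMIs per cell as the expected share over all draws, with the interval of the nearest whole number of cells, and shallower cells were left out. No sample replicates exist, so no test was run and a gene counted as 2-fold apart is a description. The rule for named genes took all 10 members, other pathway genes with at least 100 UMIs in stromal or endothelial cells, and the 3 most similar genes with at least 200 UMIs. The values of 1 pathway gene are not reported here. Alternatives were other cell filters, a stricter gate, Leiden clusters, removal of high Scrublet scores, per-cell means, other denominators and leaving out the leading cell. The counting was tested on simulated data. Tools were python 3.11.15, numpy 2.4.6, scipy 1.17.1, pandas 2.3.3, scanpy 1.11.5 and matplotlib 3.10.9.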

Additional observations from a re-analysis of the deposited data

Results flagged for a closer look

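The *Bmp2* difference between libraries had opposite directions in different cell types. Its callus over intact ratio was 2.40 in *Col15a1*-type fibroblasts, against 0.274 in unassigned fibroblasts and 0.266 in macrophages. With 1 library per condition the difference was not tested. In the *Col15a1*-type the ratio without the cell with the most *Bmp2* UMIs was 1.01, and in unassigned fibroblasts the ratio from each cell's own CPM was 0.481.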

How the results depend on the processing

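No paired analysis was possible because each condition is 1 library. The fibroblast ratio crossed 1 among the alternatives for *Id2* (0.796 to 1.17), *Id3* (0.799 to 1.02) and *Bmpr1a* (0.990 to 1.16), none of which was 2-fold apart to begin with. Of the fibroblast ratios 68 of 72 stayed within their interval. Among those outside were *Bmp2* (0.822), *Id2* (0.796) and *Id3* (0.799) with the callus subtypes weighted as in the intact library. The same weighting gave the highest *Bmp6* ratio (0.729), which stayed within its interval. The count of BMP genes at least 2-fold lower in callus fibroblasts went from 0 to 1 with the mean of each cell's CPM and to 2 without the cell with the most UMIs of the gene (*Bmp2* 0.480 and *Bmp6* 0.451). The count of other pathway genes at least 2-fold higher went from 1 to 0 with at least 50 UMIs. The share of fibroblasts with any of the 3 ligands was 62.0% in the intact and 45.5% in the callus library without thinning, 21.8% and 13.6% thinned to 1000 UMIs, and 10.7% and 5.91% where 2 UMIs were asked for. Over all alternatives the fibroblast ratio lay between 0.480 and 0.822 for *Bmp2*, 0.554 and 0.714 for *Bmp4*, and 0.451 and 0.729 for *Bmp6*. The upper *Bmp2* value is that of the subtype weighting, which kept the leading *Col15a1*-type cell. Some alternatives gave no value: the *Bmp2* ratio in macrophages under the stricter cell filter and without the leading cell, and in *Col15a1*-type and unassigned fibroblasts under Leiden clusters, which were not split into subtypes. Scrublet called only 3 and 4 doublets, so the 18 and 105 highest scores were removed. Cells of 1 library share mice, sort and depth, and all differences between conditions are differences between these 2 libraries.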
